A study of Mus musculus with 21 samples.

Results

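Trerf1, Chst11, Farp1, Syt11, Etv6 and B430306N03Rik were 6 of the 51201 gene IDs in the deposited gene count tables. They were chosen from measured values: in splenic T cells with active gp130 signalling each was higher than in control T cells, with a gap between genotypes that was large relative to the spread within groups. All 6 passed the filter on low counts in both cell types. Their differences between genotypes are therefore given as a description, with no test. The differences between CD4+ and CD8+ cells were tested, since the choice ranked no gene by them. They come from the same libraries, however, and the spread within groups that entered the choice is also their error, so their p-values are not free of it.

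Receptors for interleukin-6 and related cytokines signal through a common chain, gp130, the product of Il6st. When it is engaged, Janus kinases phosphorylate STAT3, which enters the nucleus and binds DNA at palindromic motifs. In CD4+ T cells this route is known for promoting the TH17 programme, and SOCS3 is its feedback inhibitor. L-gp130 is an engineered gp130 whose extracellular part is replaced by a leucine zipper, so that it pairs and signals without a cytokine.

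The L-gp130 mice were L-gp130fl/+;CD4Cre+/- and the controls were CD4Cre+/-, so both carried the Cre transgene. Mice were C57BL/6J, sampled at postnatal day 35, and of both sexes. Among mice that gave CD4+ cells, 4 of 6 with L-gp130 but only 1 of 6 controls were labelled male. Among those that gave CD8+ cells, males made up 2 of 3 with L-gp130 and 4 of 6 controls. Labelled sex thus went in part with genotype in CD4 cells and with cell type in control mice. It was fitted as a covariate. Cre was driven by the Cd4 promoter, which is active in thymocytes that later become CD8+ cells as well as in CD4+ cells. Polyadenylated RNA was measured in spleen cells from 6 L-gp130 and 6 control mice (CD4+, positive selection on magnetic beads) and from 3 L-gp130 and 6 control mice (CD8+, negative selection). Each library carries its own mouse number within its group.

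CD4 libraries held 17781085 to 21226510 gene counts each for L-gp130 and 27855757 to 35869208 for control mice, so depth went with genotype. CD8 libraries held 17217364 to 19476881 for L-gp130 and 17719183 to 19286396 for control mice. On the second principal component of the CD4 libraries, L-gp130 replicate 1 lay at 48.4 and the others at -30.5 to 16.3. On that of the CD8 libraries, control replicates 1 to 3 lay at 16.5 to 23.2 and control replicates 4 to 6 at -16.6 to -11.4, a split that no label names. Sex-linked transcripts went against the label in control CD4 replicate 5. Summed CD4 lineage markers (Cd4, Zbtb7b, Cd40lg, St8sia6) stood at 717 to 1082 normalised CPM (counts scaled to library size) in L-gp130 CD4 and 1051 to 1211 CPM in control CD4 libraries, against 48.6 to 54.6 CPM in L-gp130 CD8 and 32.8 to 54.0 CPM in control CD8 libraries. Of 12 B cell markers, 0 were called higher and 6 lower in L-gp130 CD4 cells, with summed levels of 294 to 721 CPM against 308 to 1147 CPM in controls. Of 14 monocyte-macrophage markers, 0 were called higher and 8 lower in L-gp130 CD8 cells, with summed levels of 309 to 447 CPM against 412 to 863 CPM in controls. Plasma cell markers (Jchain, Sdc1, Mzb1, Xbp1, Prdm1, Irf4, Tnfrsf17, Derl3, Txndc5) went the other way, with 4 of 8 tested called higher in CD4 and 2 of 9 in CD8 cells. Their summed levels were 309 to 472 CPM in L-gp130 CD4 against 228 to 282 CPM in control CD4 libraries. In CD8 libraries they overlapped, at 281 to 609 CPM in L-gp130 against 165 to 286 CPM in control mice. Over all genes, 11.1% were called higher and 7.75% lower in CD4 cells, and 10.5% each in CD8 cells. In CD4 cells 3 of 4 CD4 lineage markers were called lower. In CD8 cells 4 of 10 T cell, 2 of 3 CD8 lineage and 3 of 7 NK cell markers were lower while 4 of 11 erythroid markers were higher. Summed erythroid levels overlapped, however, at 207 to 366 CPM in L-gp130 CD8 against 97.3 to 797 CPM in control CD8 libraries. Summed T cell markers stood at 3754 to 4206 CPM in L-gp130 CD8 libraries, all below the 4472 to 4822 CPM of control CD8 libraries. No marker of these lists had a group mean of 0. Their part in the levels of the 6 genes was not tested. In such bulk samples, fewer cells of a type and less RNA per cell cannot be told apart.

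All 6 genes were higher with L-gp130, which their choice fixes. The sequence around their starts is shown for those whose RefSeq start lay within 21 bases of an annotated GENCODE transcript start. RefSeq (GRCm38.p6) held promoters, 250 bases before to 50 after the start, for 5 of the 6 genes. Trerf1's RefSeq start lay 17843 bases from the nearest GENCODE start and is not shown, and Farp1 had no entry. The sequences run 5′ to 3′ on the gene's own strand, and capitals mark a match to TTCNNNGAA, the palindrome bound by STAT factors. They lie at chr6:134035450-134035749 (plus strand) for Etv6, chr10:82985247-82985546 (plus) for Chst11, chr3:88772550-88772849 (minus) for Syt11 and chr17:48315912-48316211 (plus) for B430306N03Rik.
Etv6: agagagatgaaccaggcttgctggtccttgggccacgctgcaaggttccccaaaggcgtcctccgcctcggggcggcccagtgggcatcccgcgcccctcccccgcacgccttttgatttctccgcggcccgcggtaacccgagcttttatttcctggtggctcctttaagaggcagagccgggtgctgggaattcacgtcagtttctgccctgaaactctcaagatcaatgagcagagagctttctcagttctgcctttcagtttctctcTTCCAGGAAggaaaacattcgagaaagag
Chst11: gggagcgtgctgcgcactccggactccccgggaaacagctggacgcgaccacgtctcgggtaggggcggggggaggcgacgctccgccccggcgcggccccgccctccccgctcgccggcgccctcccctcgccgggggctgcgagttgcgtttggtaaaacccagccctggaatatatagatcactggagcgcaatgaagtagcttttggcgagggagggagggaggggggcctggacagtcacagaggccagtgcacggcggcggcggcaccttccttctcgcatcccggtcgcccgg
Syt11: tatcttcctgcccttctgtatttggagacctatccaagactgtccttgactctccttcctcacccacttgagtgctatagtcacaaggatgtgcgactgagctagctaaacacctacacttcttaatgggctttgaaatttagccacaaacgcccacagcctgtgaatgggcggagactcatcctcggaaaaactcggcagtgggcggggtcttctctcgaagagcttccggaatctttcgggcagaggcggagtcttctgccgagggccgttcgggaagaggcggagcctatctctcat
B430306N03Rik: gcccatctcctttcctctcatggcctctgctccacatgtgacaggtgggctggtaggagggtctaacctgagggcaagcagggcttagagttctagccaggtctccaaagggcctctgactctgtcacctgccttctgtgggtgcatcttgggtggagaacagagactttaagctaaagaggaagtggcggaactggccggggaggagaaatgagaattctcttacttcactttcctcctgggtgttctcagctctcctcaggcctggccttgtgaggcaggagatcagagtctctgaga

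TTCNNNGAA, which reads the same on both strands, occurred in 1 of the 5 promoters, that of Etv6. The 5 count that of Trerf1, which is not shown because its RefSeq start lay far from any GENCODE start. The match was TTCCAGGAA, at bases 22 to 30 counted from the start base as 1 (chr6:134035721-134035729). Of all 32851 RefSeq promoters of this length, 8.30% held the motif. TGANTCA, the AP-1 palindrome, occurred in 0 of the 5 and in 7.81% of all promoters. GGAA, the core bound by ETS factors, was found on one strand or the other in 5 of 5 and in 96.0% of all promoters; it lies inside the Etv6 match too. GC content was 71% in the Chst11 promoter and 53% to 57.3% in the other 4, against a median of 52.7% over all promoters.

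Over all genes, 18.9% of 15016 were called between genotypes in CD4 cells (edgeR quasi-likelihood test, adjusted p under 0.05) and 21% of 14254 in CD8 cells. In CD4 cells 11.1% were higher and 7.75% lower, and in CD8 cells 10.5% were higher and 10.5% lower. Genes called higher in both cell types made up 4.89% of 13817. Every L-gp130 library lay above every control library for 7.68% of genes in CD4 cells, for 11.7% in CD8 cells and for 3.96% of 13817 genes in both. All 6 chosen genes were among these 3.96%, which their choice fixes. The median log2 fold change over all genes was -0.01 in each cell type.

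Trerf1 (ENSMUSG00000064043, chr17:47140875-47361958, plus strand, GRCm38) encodes a zinc finger protein with ELM2 and SANT domains, found with histone deacetylases. It stood at 123, 118, 122, 109, 116 and 115 CPM in L-gp130 CD4 libraries, against 38.4, 39.0, 36.9, 37.4, 41.6 and 37.5 CPM in control CD4 libraries. In CD8 cells it stood at 69.4, 62.8 and 69.7 CPM in L-gp130 libraries, against 19.1, 17.2, 21.2, 21, 22.8 and 20.6 CPM in controls. The groups were far apart in both cell types: the lowest L-gp130 library was 2.62 times the highest control library in CD4 and 2.75 times in CD8 cells. The log2 fold change was 1.61 ± 0.06 (SE) in CD4 and 1.73 ± 0.09 in CD8 cells, the closest pair of values among the 6 genes.

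Etv6 (ENSMUSG00000030199, chr6:134035700-134270158, plus strand) encodes an ETS-family transcriptional repressor. It stood at 119, 116, 124, 119, 109 and 111 CPM in L-gp130 CD4 libraries, against 50.8, 57.3, 54.8, 56.2, 56.7 and 56.9 CPM in control CD4 libraries. CD8 libraries had 56.7, 57.8 and 69.6 CPM in L-gp130 mice, against 45.3, 45.2, 56.5, 46.1, 52.0 and 44.6 CPM in controls. The CD4 groups were well separated, while in CD8 cells the lowest L-gp130 library exceeded the highest control library by 0.17 CPM. In CD8 libraries labelled male, L-gp130 mice had 56.7 to 57.8 CPM and controls 45.2 to 52.0 CPM. The log2 fold change was 1.08 ± 0.06 in CD4 and 0.34 ± 0.09 in CD8 cells, the smallest of the 6 genes in each.

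Chst11 (ENSMUSG00000034612, chr10:82985498-83195900, plus strand) encodes a Golgi sulfotransferase that adds sulfate to the 4-position of chondroitin. It stood at 62.3, 38.1, 46.5, 39.3, 46.5 and 49.3 CPM in L-gp130 CD4 libraries, against 5.13, 5.89, 8.75, 9.17, 8.11 and 7.18 CPM in control CD4 libraries. In CD8 cells it stood at 122, 141 and 130 CPM in L-gp130 libraries, against 27.0, 33.1, 26.0, 28.8, 26.8 and 26.4 CPM in controls. The lowest L-gp130 library was 4.16 times the highest control library in CD4 and 3.68 times in CD8 cells, the widest separation of the 6 genes. The highest L-gp130 CD4 value and the lowest control CD4 value both came from replicate 1. The log2 fold change was 2.74 ± 0.19 in CD4 and 2.23 ± 0.08 in CD8 cells.

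Farp1 (ENSMUSG00000025555, chr14:121035200-121283744, plus strand) encodes a FERM-domain guanine nucleotide exchange factor, known from neurons, where it acts with plexins and in synapse formation. It stood at 27.6, 31.6, 31.5, 28.0, 22.4 and 31.2 CPM in L-gp130 CD4 libraries, against 4.55, 6.95, 7.36, 6.39, 5.60 and 6.71 CPM in control CD4 libraries. CD8 libraries had 9.34, 7.29 and 9.15 CPM in L-gp130 mice, against 2.71, 3.85, 3.16, 1.91, 2.39 and 3.31 CPM in controls. The groups did not overlap, and control CD8 cells had the lowest level of any gene and group here, with 32.9 to 69.5 estimated counts per library. The log2 fold change was 2.36 ± 0.12 in CD4 and 1.57 ± 0.22 in CD8 cells.

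Syt11 (ENSMUSG00000068923, chr3:88744700-88775164, minus strand) encodes a synaptotagmin that does not bind calcium and restrains membrane traffic and secretion. It stood at 115, 165, 145, 129, 140 and 128 CPM in L-gp130 CD4 libraries, against 42.1, 44.9, 46.3, 39.2, 47.8 and 42.9 CPM in control CD4 libraries. In CD8 cells it stood at 55.8, 52.7 and 63.4 CPM in L-gp130 libraries, against 31.4, 36.3, 28.8, 33.6, 40.0 and 34.4 CPM in controls. The lowest L-gp130 library was 2.40 times the highest control library in CD4 but 1.32 times in CD8 cells. The log2 fold change was 1.70 ± 0.09 in CD4 and 0.75 ± 0.11 in CD8 cells.

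B430306N03Rik (ENSMUSG00000043740, chr17:48316141-48327024, plus strand) is a protein-coding gene that lies among the Trem and Treml receptor genes. It stood at 31.9, 45.8, 32.7, 40.1, 37.1 and 29.5 CPM in L-gp130 CD4 libraries, against 14.5, 14.7, 13.6, 15.6, 10.8 and 16.0 CPM in control CD4 libraries. CD8 libraries had 32.0, 35.5 and 33.5 CPM in L-gp130 mice, against 6.28, 8.14, 7.93, 9.20, 7.23 and 8.93 CPM in controls. The groups did not overlap, and the separation was wider in CD8 cells (3.48 times, lowest L-gp130 over highest control library) than in CD4 cells (1.85 times). The log2 fold change was 1.37 ± 0.14 in CD4 and 2.08 ± 0.12 in CD8 cells.

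**Figure D1:**
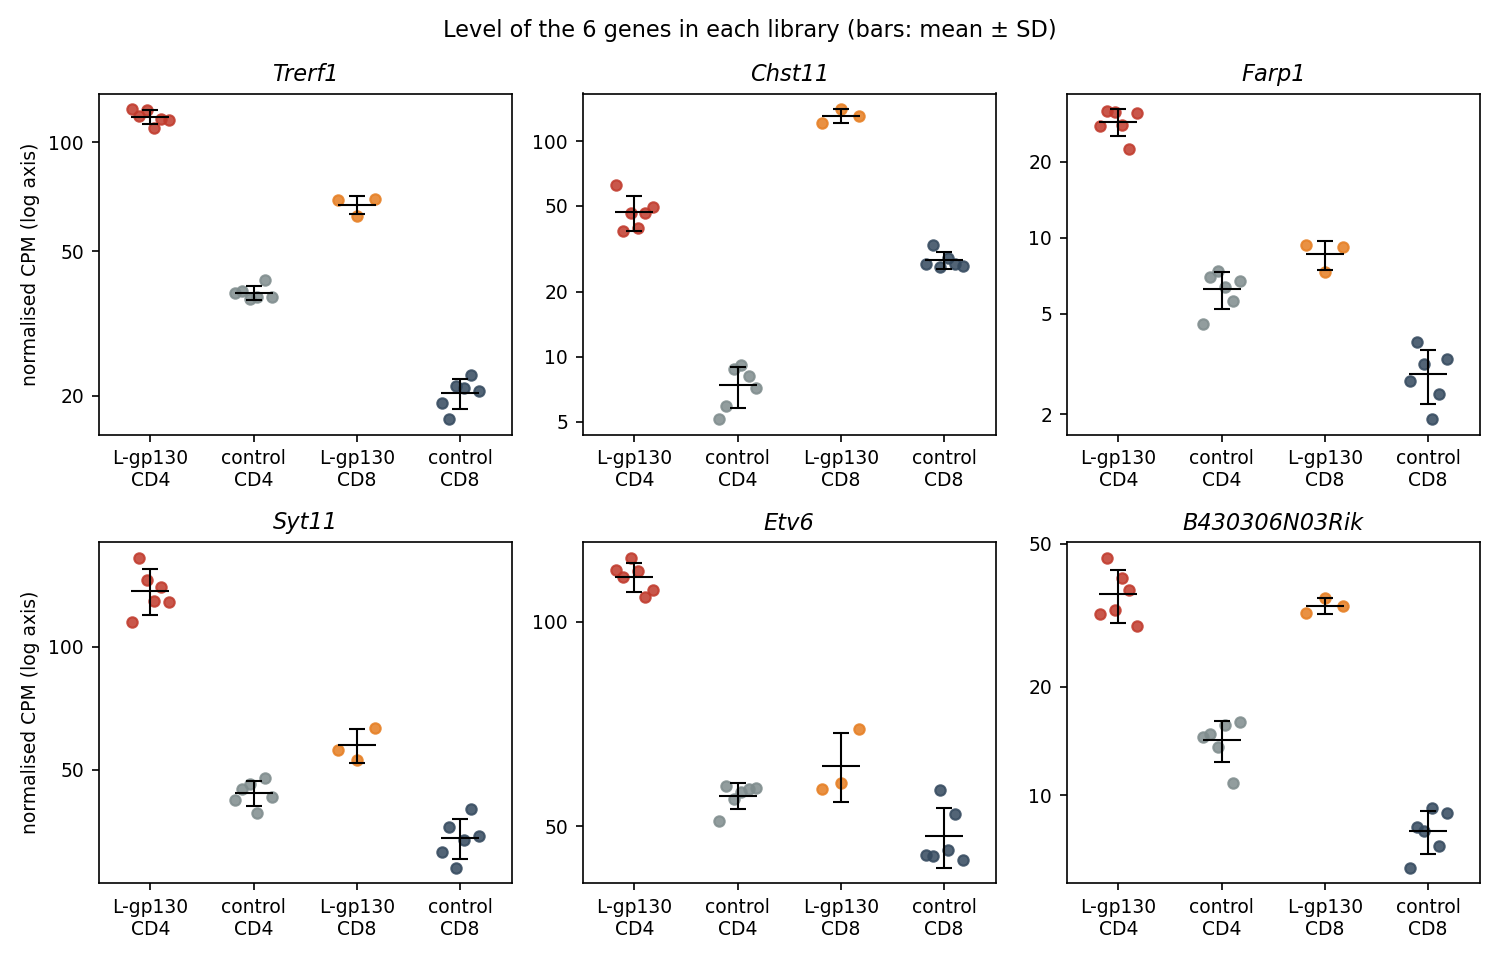
Normalised CPM (log axis) of each gene in every library, with L-gp130 left of control for CD4 and then CD8 cells; points are libraries and bars the mean ± SD (n = 6, 6, 3 and 6). The genotypes are apart in all 12 pairs of groups, by as little as 0.17 CPM for Etv6 in CD8 cells.

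With counts thinned to equal depth the log2 fold changes in CD4 cells were 1.58 for Trerf1, 1.07 for Etv6, 2.73 for Chst11, 2.31 for Farp1, 1.73 for Syt11 and 1.40 for B430306N03Rik. Without L-gp130 replicate 1 and control replicate 5 they were 1.62, 1.08, 2.70, 2.33, 1.74 and 1.33 in the same order.

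The size of the genotype difference varied with cell type. As the difference of the log2 fold changes (CD4 minus CD8, all 21 libraries, reads summed per gene), it was 0.86 ± 0.12 for Syt11, 0.76 ± 0.18 for Farp1, 0.76 ± 0.09 for Etv6 and 0.43 ± 0.22 for Chst11. It was -0.10 ± 0.09 for Trerf1 and -0.71 ± 0.17 for B430306N03Rik. Relative to their SE, the values of Trerf1 and Chst11 were the smallest. These differences were not tested, since the choice of the genes used both genotype contrasts.

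The choice used the gap between genotypes relative to the spread within groups. A version of that measure was defined here, which need not be the one that made the choice. It was the distance from the highest control to the lowest L-gp130 library in log2(CPM + 0.5), divided by the mean of the ranges within the groups. Among 13817 genes tested in both cell types and ranked by the smaller of the CD4 and CD8 ratios, Trerf1 was at 2, Chst11 at 8, B430306N03Rik at 32, Farp1 at 33, Syt11 at 59 and Etv6 at 532. Outside the set, the inhibitory receptor gene Lag3 was at 1, Lrrc6 at 3, the cytotoxic protease gene Gzmb at 4 and the inhibitory receptor gene Pdcd1 at 5. Etv6 ranked at 5 in CD4 but at 1584 in CD8 cells, with ratios of 5.00 and 0.01. B430306N03Rik ranked at 86 in CD4 and at 8 in CD8 cells, with ratios of 1.49 and 5.28.

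**Figure D2:**
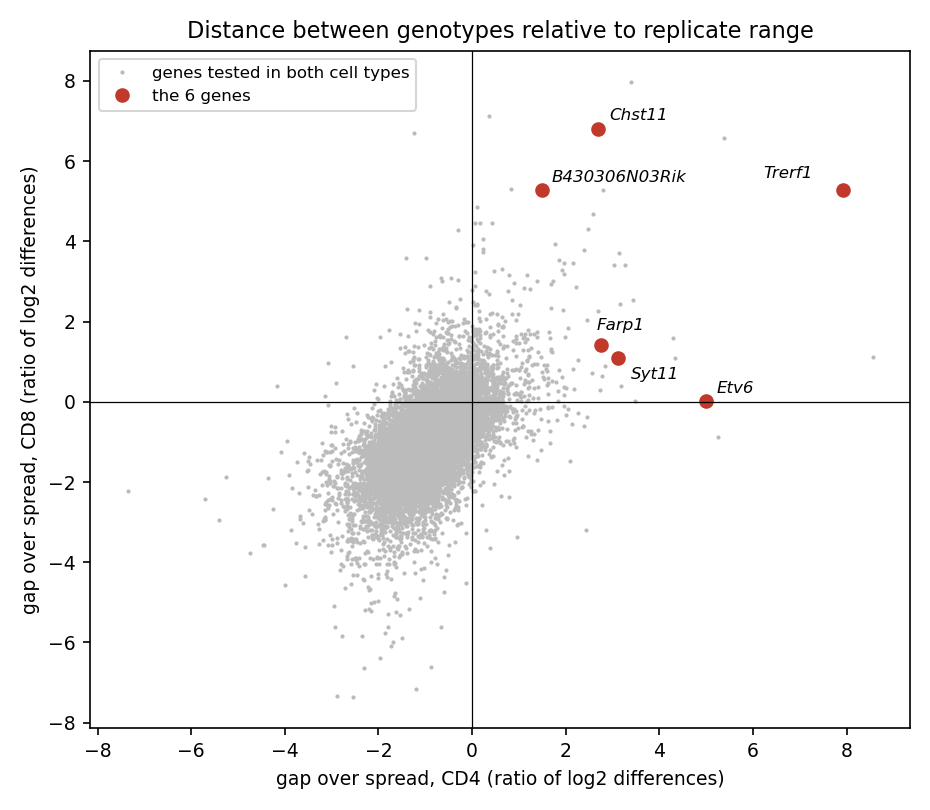
Distance between genotypes over replicate range in CD4 (horizontal) and CD8 cells (vertical) for 13817 genes, the 6 genes in red; values above 0 mean that every L-gp130 library exceeded every control library. Trerf1 (7.92 and 5.27) lies far out on both axes, whereas Etv6 lies at 5.00 in CD4 and 0.01 in CD8 cells.

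The spread within groups entered the choice and is a description only. The coefficient of variation of Trerf1 was 4.46% in L-gp130 CD4 and 4.47% in control CD4 libraries, and 5.81% in L-gp130 CD8 and 9.54% in control CD8 libraries. That of Etv6 was 4.90% in L-gp130 CD4 and 4.38% in control CD4 libraries, and 11.6% in L-gp130 CD8 and 10.1% in control CD8 libraries. Chst11 varied more in CD4 cells, with 18.5% in L-gp130 and 21.8% in control libraries, than in CD8 cells, with 7.27% in L-gp130 and 9.45% in control libraries. Each gene was also set against genes within 2-fold of its mean CPM. Over the 4 groups, 3.35% to 38.7% of these varied less than Trerf1 and 36.8% to 49.5% less than Farp1. The share was 48.6% to 65.7% for Syt11, 36.6% to 76.6% for Chst11, 24.3% to 68.4% for B430306N03Rik and 4.51% to 77.1% for Etv6.

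The next comparison asked how the 6 genes differ between CD4+ and CD8+ cells of the same genotype. It used Salmon reads summed per gene, because the gene tables were scaled separately. In control mice 52.3% of 14660 genes were called (CD4 over CD8, edgeR quasi-likelihood test, adjusted p under 0.05), and 5 of the 6 genes were among them. Of all genes 27.1% were higher and 25.2% lower in CD4 cells, and of the 6 genes 4 were higher and 1 lower. Since CD4+ cells were positively and CD8+ cells negatively selected, cell type and selection method cannot be told apart in this contrast. Markers of other cells moved with it, here on CPM scaled together over all 21 libraries. In control mice summed erythroid markers stood at 4595 to 26407 CPM in CD4 and 97.3 to 797 CPM in CD8 libraries, and B cell markers at 308 to 1147 CPM in CD4 and 49.4 to 121 CPM in CD8 libraries. In L-gp130 mice erythroid markers stood at 6658 to 38695 CPM in CD4 and 207 to 366 CPM in CD8 libraries, and B cell markers at 294 to 721 CPM in CD4 and 61.8 to 87.0 CPM in CD8 libraries. Their part in these differences was not tested.

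In control mice Trerf1 was higher in CD4 than in CD8 cells, at 37.2 ± 1.9 CPM against 21.1 ± 1.8 CPM (SD, n = 6 each), with a log2 fold change of 0.84 ± 0.07 (adjusted p = 4.2e-07). Farp1 was higher too, at 6.32 ± 1.01 CPM in CD4 against 3.03 ± 0.67 CPM in CD8 cells (log2 0.85 ± 0.14, adjusted p = 0.000184). B430306N03Rik stood at 13.7 ± 1.6 CPM in CD4 against 8.21 ± 1.15 CPM in CD8 cells (log2 0.71 ± 0.13, adjusted p = 0.000378). Syt11 showed a smaller difference, with overlapping groups: 42.4 ± 2.8 CPM in CD4 against 35.6 ± 3.0 CPM in CD8 cells (log2 0.31 ± 0.07, adjusted p = 0.00257). Chst11 ran the other way, at 7.16 ± 1.55 CPM in CD4 against 29.1 ± 2.7 CPM in CD8 cells, which is 4.16-fold lower in CD4 cells (log2 -2.06 ± 0.16, adjusted p = 1.6e-07). Etv6 did not pass the test, at 53.6 ± 2.2 CPM in CD4 against 50.3 ± 4.9 CPM in CD8 cells (log2 0.06 ± 0.06, adjusted p = 0.409).

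In L-gp130 mice 38.7% of 15030 genes were called between the cell types, 19.4% higher and 19.3% lower in CD4 cells. Of the 6 genes 4 were called higher and 1 lower, with Etv6 called here and B430306N03Rik not. Etv6 was higher in L-gp130 CD4 than in L-gp130 CD8 cells, at 113.7 ± 5.8 CPM (n = 6) against 65.1 ± 4.3 CPM (n = 3) (log2 0.79 ± 0.07, adjusted p = 6.6e-05). B430306N03Rik did not pass, at 35.3 ± 5.5 CPM in CD4 against 35.6 ± 2.4 CPM in CD8 cells (log2 -0.03 ± 0.13, adjusted p = 0.885). Farp1 (log2 1.64 ± 0.13, adjusted p = 2.1e-05) and Syt11 (log2 1.05 ± 0.09, adjusted p = 3.7e-05) were higher in CD4 cells. Trerf1 was 0.68 ± 0.08 higher on the log2 scale (adjusted p = 0.0002). Chst11 was again lower in CD4 cells, at 45.8 ± 8.7 CPM against 139.5 ± 10.7 CPM in CD8 cells (log2 -1.62 ± 0.14, adjusted p = 4.97e-05).

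**Figure D3:**
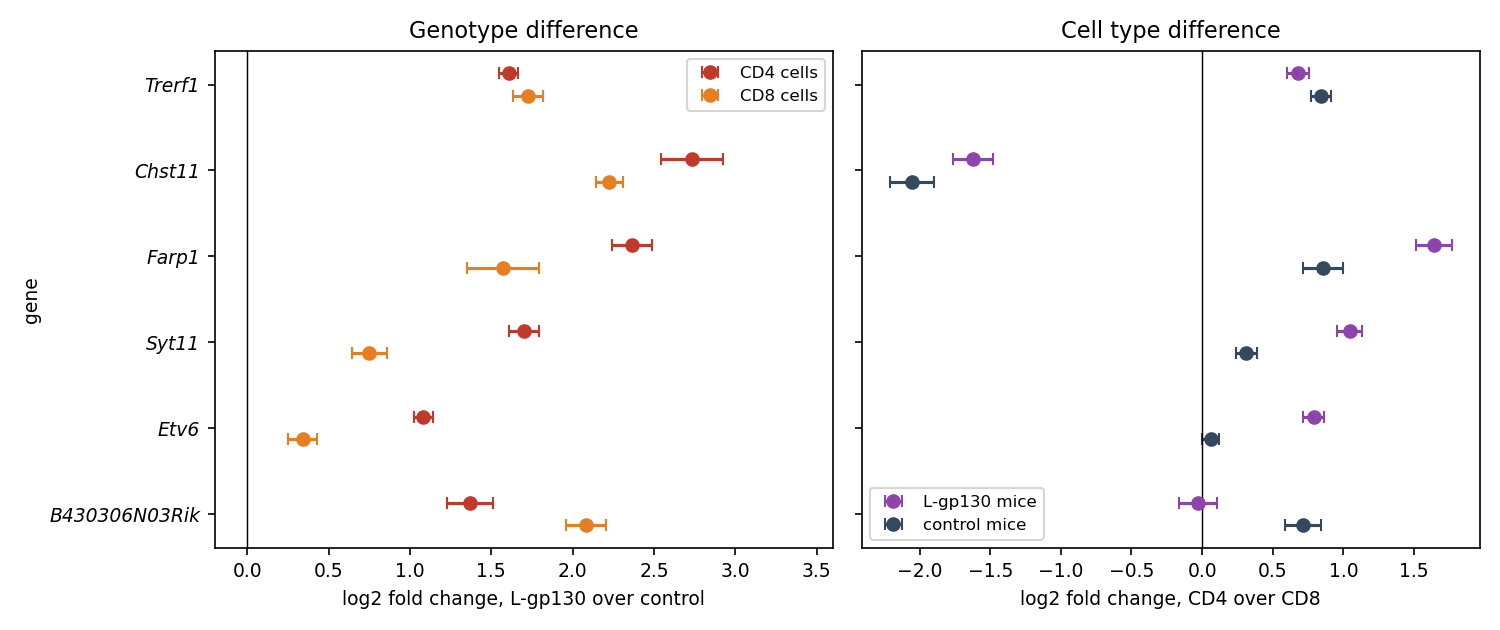
Log2 fold change ± SE of each gene between genotypes (left, L-gp130 over control, CD4 and CD8 cells) and between cell types (right, CD4 over CD8, L-gp130 and control mice). Chst11 lies left of 0 in the cell type panel in both genotypes (-1.62 and -2.06), and the other genes lie near or right of 0.

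Ordered by group, Trerf1, Farp1, Syt11 and Etv6 were highest in L-gp130 CD4 cells, followed by L-gp130 CD8, control CD4 and control CD8 cells. Chst11 was highest in L-gp130 CD8, then L-gp130 CD4, control CD8 and control CD4 cells. For B430306N03Rik both L-gp130 groups stood together on top, above control CD4 and control CD8 cells. Neighbouring groups in these orders overlapped in 3 cases: the control groups for Syt11 and for Etv6, and the L-gp130 groups for B430306N03Rik.

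Per length, in TPM, which corrects for transcript length and library size, Syt11 was the most abundant of the 6 in L-gp130 CD4 cells at 41.6 ± 6.4 TPM, followed by Trerf1 at 28.2 ± 1.3 and Etv6 at 27.1 ± 2.1 TPM, which overlapped. B430306N03Rik stood at 14.3 ± 2.8, Chst11 at 11.7 ± 1.7 and Farp1 at 7.49 ± 1.06 TPM. In L-gp130 CD8 cells Chst11 led at 29.3 ± 1.4 TPM, although in control CD4 cells it was the second lowest at 1.96 ± 0.47 TPM. Farp1 was the least abundant in all 4 groups, down to 0.64 ± 0.15 TPM in control CD8 cells.

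Most of the TPM of each gene except Trerf1 came from few annotated transcripts. Chst11 has 1 annotated transcript. Syt11-201 took 87.8 ± 3.5% of Syt11's TPM in L-gp130 CD4 and 88.1 ± 1.9% in control CD4 cells, and 88.4 ± 2.9% in L-gp130 CD8 and 81.5 ± 9.7% in control CD8 cells. B430306N03Rik-201 took 93.2 ± 3.0% in L-gp130 CD4 and 92.8 ± 4.8% in control CD4 cells, and 96.6 ± 3.4% in L-gp130 CD8 and 97.9 ± 4.3% in control CD8 cells. Farp1-201 took 85.2 ± 7.3% in L-gp130 CD4 and 93.3 ± 3.2% in control CD4 cells, with overlapping ranges.

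Etv6 divided its TPM between a pair of coding transcripts with the same start. Etv6-201 took 59.6%, 48.4%, 44.3%, 53.3%, 59.0% and 51.4% in L-gp130 CD4 libraries, against 49.8%, 54.9%, 40.7%, 39.5%, 46.7% and 44.6% in control CD4 libraries, and the groups overlapped. In CD8 cells it took 56.9%, 69.0% and 61.7% in L-gp130 libraries, against 52.2%, 60.6%, 61.0%, 39.4%, 49.7% and 40.7% in controls, again with overlap. Etv6-202 took 44.6 ± 4.5% in L-gp130 CD4 and 51.7 ± 5.2% in control CD4 cells, and 33.6 ± 8.3% in L-gp130 CD8 and 45.9 ± 10.7% in control CD8 cells.

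Trerf1 was spread over 6 transcripts, none of them annotated as coding in GENCODE vM21, although RefSeq lists the gene as protein-coding. Trerf1-205 took 38.9 ± 2.1% in L-gp130 CD4 and 40.1 ± 2.2% in control CD4 cells. Trerf1-203, a retained-intron form, took 17.9%, 17.3%, 18.3%, 17.8%, 18.1% and 21.3% in L-gp130 CD4 libraries, against 21.2%, 23.6%, 21.9%, 21.1%, 22.5% and 22.2% in control CD4 libraries. All L-gp130 CD4 libraries except replicate 6 lay below all control CD4 libraries. In CD8 cells this form took 23.3 ± 1.8% in L-gp130 and 27.9 ± 5.1% in control libraries, with overlapping ranges. In TPM this form was still higher in L-gp130 CD4 cells, at 5.20 ± 0.33 against 2.17 ± 0.22 TPM in controls.

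**Figure D4:**
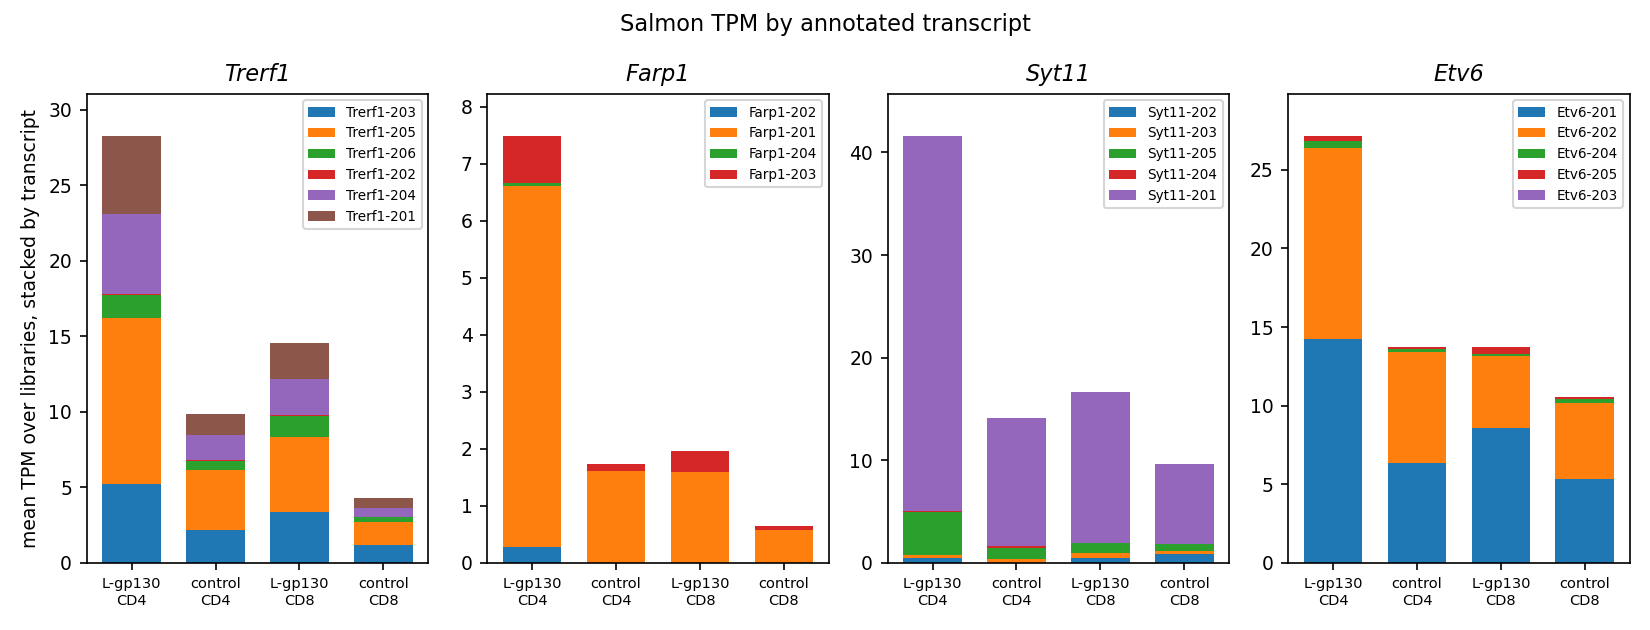
Mean TPM per annotated transcript, stacked, for Trerf1, Farp1, Syt11 and Etv6, with L-gp130 left of control for CD4 and then CD8 cells. The total height differs between genotypes (for Etv6, 27.1 against 13.7 TPM in CD4 cells) while Syt11-201 holds 87.8% of Syt11 in L-gp130 CD4 and 88.1% in control CD4 cells.

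Transcript use was tested between CD4 and CD8 cells of control mice. Of 32649 transcripts, 3.02% were called by edgeR's diffSpliceDGE. Of 10 transcripts of Trerf1, Syt11 and Etv6 that could be tested, 0 were called (0 at an unadjusted p under 0.05). With limma's diffSplice, which called 13% of all transcripts, 0 of the 10 were called and 1 had an unadjusted p under 0.05, Trerf1-203, with the smallest adjusted p of 0.13.

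The genes whose pattern over the 21 libraries was most like each member's were found by the root mean square difference in gene-centred log2(CPM + 0.5), among 11798 genes. They share libraries and depth with the members, and the likeness is a description. For Trerf1 these were Ttbk1 (0.26), a tubulin kinase gene, and Ryk (0.30), a Wnt co-receptor gene. For Chst11 they were Tubb3 (0.52) and Cd160 (0.56), Cd160 encoding a receptor of CD8+ and NK cells. For Farp1 they were Rab39b (0.28) and Tigit (0.33), an inhibitory receptor gene. For Syt11 they were Ksr1 (0.25), a MAP kinase scaffold gene, and Egr2 (0.26), a transcription factor gene induced by antigen receptor signals. For Etv6 they were Slc45a4 (0.18) and Zc3h12d (0.19), and for B430306N03Rik they were Bcl3 (0.30), a STAT3-responsive nuclear cofactor gene, and Trerf1 (0.31). Chst11 was farthest from the other 5, at 1.19 to 1.52, while Trerf1 lay at 0.31 to 0.54 from the remaining 4.

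Members of the same families or pathways were listed to set the 6 genes among their relatives. Of 7 genes of the gp130-STAT3 route, 5 rose and 0 fell in L-gp130 CD4 cells (median log2 fold change 0.98), while in CD8 cells the counts were 5 and 1 (median 0.73). Socs3 averaged 358 ± 60.0 CPM in L-gp130 CD4 and 127 ± 9.3 CPM in control CD4 cells (log2 1.55 ± 0.12, edgeR adjusted p = 4.0e-06). CD8 cells of L-gp130 mice averaged 483 ± 35.8 CPM, those of controls 141 ± 23.0 CPM (log2 1.79 ± 0.12, adjusted p = 1.2e-05). Batf, an AP-1 factor gene of TH17 cells, stood at 73.4 ± 5.8 CPM in L-gp130 CD4 against 24.4 ± 1.4 CPM in control CD4 cells (log2 1.62 ± 0.08, adjusted p = 7.3e-08). The gene that fell was Il6st in CD8 cells, at 183 ± 12 CPM in L-gp130 against 261 ± 20.3 CPM in control mice (log2 -0.52 ± 0.08, adjusted p = 0.00198).

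The families that the 6 genes belong to were counted in the same way, beside 11.1% higher and 7.75% lower over all genes in CD4 cells and 10.5% each in CD8 cells. Among 20 other ETS genes 0 were higher and 2 fell in CD4 cells (median -0.19), and among 18 in CD8 cells 0 were higher and 3 fell (median -0.14). Spib, an ETS gene of B cells, was among the genes that fell in CD4 cells (log2 -1.43 ± 0.29, adjusted p = 0.00641), and so was Ets2 (log2 -0.41 ± 0.10, adjusted p = 0.0141). In CD8 cells Spic, a macrophage gene, Elk4 and Etv3 fell, by 1.89, 0.40 and 0.35 on the log2 scale. B cell and macrophage markers were lower in the same groups, as given above. The part of such cells in the differences of the ETS genes was not tested.

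Of 18 ELM-SANT and histone deacetylase genes tested with Trerf1, CD4 cells had 1 that rose and 0 that fell, CD8 cells 2 that rose and 1 that fell, no more than the 18.9% and 21% called over all genes. Hdac1 was the one that rose in CD4 cells (log2 0.19 ± 0.06, adjusted p = 0.0316) and it rose in CD8 cells too (0.23 ± 0.06, adjusted p = 0.0196). Of the chondroitin sulfate genes, 2 rose and 4 fell of 24 in CD4 cells, and 2 rose and 4 fell of 23 in CD8 cells. Xylt1, which starts the sugar chain, fell in CD4 cells (log2 -0.55 ± 0.09, adjusted p = 0.00096), while the proteoglycan core Srgn rose (0.62 ± 0.10, adjusted p = 0.00109). In CD8 cells the epimerase gene Dse fell (-1.11 ± 0.09, adjusted p = 4.5e-05), and the chain polymerase gene Chsy1 rose (0.48 ± 0.08, adjusted p = 0.00242).

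Of the plexins and semaphorins, with which Farp1 works in neurons, 5 rose and 4 fell of 22 in CD4 cells, and 3 rose and 1 fell of 16 in CD8 cells. Sema4d and Sema4f rose in both cell types, with log2 fold changes of 0.45 and 1.08 in CD4 and 0.50 and 0.52 in CD8 cells.

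Of the synaptotagmin family and related tandem C2 genes, 9 were tested in CD4 and 8 in CD8 cells. Sytl3, a Rab27 effector gene, was the 1 that rose in each, with a log2 fold change of 2.76 ± 0.30 in CD4 (adjusted p = 0.000108) and 0.51 ± 0.15 in CD8 cells (adjusted p = 0.0374). Among 14 Trem and CD300 family genes 0 were higher in either cell type, 2 fell in CD4 and 1 fell in CD8 cells. The last was Treml4, 40.8 kb from B430306N03Rik, which fell in CD8 cells (-1.09 ± 0.25, adjusted p = 0.0121). Treml2, the nearest of them at 3.61 kb, had log2 fold changes of 0.09 ± 0.12 in CD4 (adjusted p = 0.63) and 0.03 ± 0.10 in CD8 cells (adjusted p = 0.863).

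The genomic surroundings of the 6 genes were examined because 4 of them span over 200 kb, as do 3.58% of the 13817 genes tested (median span 20.3 kb). Trerf1 spans 221, Chst11 210.4, Farp1 249 and Etv6 234 kb, against 30.5 kb for Syt11 and 10.9 kb for B430306N03Rik. The first 4 are longer than 96.7% to 97.6% of the genes tested, Syt11 than 62.5% and B430306N03Rik than 32.1%. Spans were not tested, and the 200 kb line, just under these 4 spans, is a description only. Of the genes within 500 kb of any of the 6, 9 of 99 rose and 5 fell in CD4 cells (14.1%); 13 of 99 rose and 7 fell in CD8 cells (20.2%), beside 18.9% and 21% over all genes. Around Trerf1, 0 of 26 tested neighbours were called in CD4 cells, and 1 of 27 rose (Tomm6) and 1 fell (Tfeb) in CD8 cells. Within 1000 kb of it, 4 of 49 rose and 2 fell in CD4 cells. Around Farp1 few genes were tested, and 1 of 5 rose in CD4 cells. In CD8 cells 3 of 4 rose (Ipo5, B930095G15Rik and Dock9) and 1 fell (Stk24). Within 1000 kb of Farp1, 6 of 13 rose and 2 fell in CD8 cells. Around each of the remaining genes, 8.33% to 33.3% were called in CD4 and 7.69% to 25.6% in CD8 cells within 500 kb.

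Individual neighbours did differ. B930095G15Rik lies within Farp1 and stood at 4.24 CPM in L-gp130 against 1.04 CPM in control CD4 cells (log2 2.21 ± 0.20); in CD8 cells its log2 fold change was 1.40 ± 0.42 (adjusted p = 0.0387). Both genes lie on the plus strand, so its reads and unspliced reads of Farp1 cannot be told apart. Near Syt11, Trim46 rose in CD4 (1.22 ± 0.19, adjusted p = 0.000832) and in CD8 cells (1.78 ± 0.23, adjusted p = 0.000733), and Muc1 rose in CD4 cells (3.36 ± 0.38). Near Etv6, Lrp6, a Wnt co-receptor gene, fell in CD4 (-0.43 ± 0.11, adjusted p = 0.0128) and in CD8 cells (-0.53 ± 0.12, adjusted p = 0.0107). Etv6 was the only one of the 6 whose exons overlap another gene's: 135 of its 5983 exon bases are shared with Gm17089, which had 7 reads over all L-gp130 CD4 libraries and 10 over the control CD4 libraries. Trerf1 and B430306N03Rik lie on the same chromosome, 954 kb apart.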

How the data were processed

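The authors deposited estimated counts per gene for each cell type and, per the file headers, Salmon's estimated counts per transcript and TPM for each library. The submitters' processing notes name Salmon 1.5.2, edgeR 3.34.1, cutadapt 3.4 and Trimmomatic 0.39, and the build GRCm38, without roles. The gene tables are TPM scaled by length, separately for each cell type, per the values. Symbols and positions came from GENCODE vM21 (51115 of 51201 gene IDs), and 694 transcripts without a match held 0.144% to 0.209% of reads. The smallest chi-square per gene between libraries of a group was 9.62, so no library was a second copy of another.

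Estimated counts were rounded, then fitted in R 4.3.3 by edgeR 4.0.16 (filterByExpr, TMM, robust quasi-likelihood, labelled sex as covariate, 2-sided, Benjamini-Hochberg over all genes). The SE was derived from the log2 fold change and its F statistic. Cell types were compared on Salmon reads summed per gene. DESeq2 1.42.0 and limma 3.58.1 served as alternatives. On simulated data the gene tests recovered 61.2% to 88.1% of 2-fold rises and 100% of 4-fold rises. The simulation gave all genes the same dispersion and no differences by sex or batch, so these rates need not hold for the real libraries. For transcripts diffSpliceDGE made 50 false calls and limma 16, so limma was added after seeing this.

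The 6 genes, the gene lists and the tests were chosen with earlier results of these data known. Other genes were named by a rule: up to 3 called members of each list with the smallest adjusted p, the 2 most like each of the 6 genes, and called genes within 500 kb, of which those described are a choice made after seeing values. Il6st, Treml2, Lag3, Lrrc6, Gzmb and Pdcd1 were named outside it after their values were seen. The replicate numbers did not pair the samples. The result of 1 further gene list is not reported here.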

Additional observations from a re-analysis of the deposited data

How the results depend on the processing

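All 210 alternatives of the 6 genes' differences between cell types kept their side of the threshold. The differences that did not pass changed sign with libraries left out: Etv6 in control mice ranged over -0.02 to 0.14 and B430306N03Rik in L-gp130 mice over -0.12 to 0.06. Of the alternatives of their genotype differences, 221 of 222 moved by less than the pooled SD between libraries of a group (log2(CPM + 0.5)), and 9 moved by more than the SE of the fold change; B430306N03Rik in CD4 cells ranged over 1.17 to 1.49 and Chst11 over 2.48 to 2.94. The one beyond the SD was Etv6 in CD4 cells, 1.01 without control CD4 replicate 1. The groups of all 6 did not overlap in either cell type under any setting tried, but the genes were chosen for this gap. Leaving out a library kept the CPM of the others unchanged, so it could only keep or widen the gap. A larger added constant could not close it either. TPM could, and there the ratio of gap to spread in CD8 cells was 0.009 for Etv6 and 0.98 for Syt11. Counts over all genes moved more. Between genotypes in CD4 cells, 2836 genes were called, and 1411 to 3642 with 1 library left out (1411 without L-gp130 replicate 6, 1529 without control replicate 1). In CD8 cells 2996 were called, and 1374 to 2967 with 1 library left out (1374 without L-gp130 replicate 1, 1865 without replicate 2, 1554 without replicate 3). Between cell types, leaving out 1 library gave 6658 to 7974 genes in control mice (7662 in all) and 3931 to 6758 in L-gp130 mice (5813 in all). Transcripts called numbered 677 to 1097 (986 in all), and 4234 with limma's diffSplice. Neighbours called numbered 14 in CD4 and 20 in CD8 cells within 500 kb, 7 and 8 within 250 kb, and 29 and 36 within 1000 kb.

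With the replicate block in place of sex, 3620 genes were called in CD4, 2406 in CD8, 8505 in control mice and 3794 in L-gp130 mice, and 1283 transcripts. Between genotypes, same-numbered libraries correlated at -0.26 to 0.20 in CD4 cells and at -0.04 to 0.20 in CD8 cells. Of these, 1 of 6 and 1 of 3 correlated best with their own number, but they come from different mice. Between cell types, same-numbered libraries correlated at 0.02 to 0.20 in control and at -0.09 to 0.15 in L-gp130 mice. Labelled sex was the same in 3 of 6 and 1 of 3 of these pairs, so the numbers were not taken to pair mice. Without the sex covariate 4155 genes were called in CD4 cells and 2992 in CD8 cells. The cause of these shifts was not tested. With 3 L-gp130 CD8 mice and 32.9 to 69.5 counts of Farp1 per control CD8 library, its CD8 difference was the least precise of the 6.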
